A study of Homo sapiens with 6 samples.

Results

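The comparison described here is JQ1 against DMSO in KMS-12, a human multiple myeloma cell line, by ATAC-seq, in which a transposase cuts and tags open DNA. All regions of the authors' deposited table were used, 952 that are low in all 3 lines of the series and 1235, 866 and 785 that are low in a pair of lines, each with a fold change for KMS-12 and for the other 2 lines, KMS-11 and RPMI8226. The rule for this comparison took the KMS-12 libraries, 2 of the 6 in the series: cells with 1 µM JQ1 for 72 h, and cells with the solvent DMSO in equal volume. The lines KMS-11 and RPMI8226, used as a reference only, each had 1 library with JQ1 and 1 with DMSO in the same way. All 6 libraries are labelled as wild type multiple myeloma cells, and each line is a single culture line, not a set of patients. The labels give KMS-12 with no subline. Neither the base of the logarithm nor the direction of the fold is stated in the table, so the values are read as log2 of JQ1 over DMSO, and a fold of -1 then stands for an accessibility reduced to 0.5 of the DMSO value.

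BET proteins are bromodomain proteins that bind acetylated histones at enhancers and promoters and recruit the machinery that elongates transcripts. JQ1 occupies their bromodomains and releases them from chromatin, and in myeloma it is known for lowering MYC expression. Multiple myeloma is a cancer of plasma cells, the antibody-secreting end stage of B cells, and open regions near plasma cell, B cell and signalling genes are where such an effect is usually looked for.

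With 1 library a side no fold has a replicate check, and no test is given. The table holds no levels or read counts, so depth is unknown, the plasma cell markers of the line could not be checked for presence, and fewer cells with an open region cannot be told apart from less opening per cell. Each listed region has a fold at or below -0.5 in at least 2 of the 3 lines and no fold above 0 in any line. The table is thus a list of regions that were lower with JQ1, and its sign is a property of the selection.

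Of the 106 regions that overlapped a promoter window, the 250 bases before to 50 bases after a gene start, 4 are shown as sequence because they were the lowest in KMS-12 among those covering at least 200 bases of a protein-coding gene's window. This choice was made after their values were seen. The sequences are those of NCBI RefSeq, GRCh38.p14, plus strand, 5′ to 3′, at chr3:194135898-194136197 for HES1, chr10:93073643-93073942 for CYP26A1, chr10:19816182-19816481 for PLXDC2 and chr16:77788314-77788613 for VAT1L. Capitals mark matches, on either strand, to TGGGAA, the core bound by the Notch effector RBPJ, or to AGNTCA repeated after 5 further bases. The latter is a narrow form of the direct repeat bound by retinoic acid receptors, and other forms were not searched.
HES1: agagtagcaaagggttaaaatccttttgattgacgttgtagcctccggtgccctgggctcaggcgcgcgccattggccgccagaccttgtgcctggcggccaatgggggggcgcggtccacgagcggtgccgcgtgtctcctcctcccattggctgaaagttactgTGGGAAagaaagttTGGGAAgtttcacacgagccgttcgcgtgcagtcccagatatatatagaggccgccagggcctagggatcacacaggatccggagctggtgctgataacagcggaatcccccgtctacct
CYP26A1: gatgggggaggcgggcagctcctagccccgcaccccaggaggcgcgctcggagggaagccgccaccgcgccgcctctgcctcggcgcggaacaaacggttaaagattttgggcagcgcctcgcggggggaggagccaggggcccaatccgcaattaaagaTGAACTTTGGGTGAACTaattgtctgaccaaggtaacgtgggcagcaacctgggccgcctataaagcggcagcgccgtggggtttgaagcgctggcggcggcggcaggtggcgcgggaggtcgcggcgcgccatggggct
PLXDC2: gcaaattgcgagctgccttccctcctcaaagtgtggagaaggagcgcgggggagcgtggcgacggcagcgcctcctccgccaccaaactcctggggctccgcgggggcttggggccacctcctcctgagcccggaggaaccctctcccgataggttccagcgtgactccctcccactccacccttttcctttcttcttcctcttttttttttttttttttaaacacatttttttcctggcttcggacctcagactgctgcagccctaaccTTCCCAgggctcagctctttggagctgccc
VAT1L: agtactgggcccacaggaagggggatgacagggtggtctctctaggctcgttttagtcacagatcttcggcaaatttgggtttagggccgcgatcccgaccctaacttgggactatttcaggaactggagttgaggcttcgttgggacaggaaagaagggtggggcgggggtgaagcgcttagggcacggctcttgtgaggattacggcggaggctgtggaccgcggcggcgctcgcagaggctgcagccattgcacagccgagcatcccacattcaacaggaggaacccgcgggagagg
HES1 encodes a transcriptional repressor and is the textbook target of Notch signalling. Its window held TGGGAA at bases 167 to 172 and again at bases 181 to 186, counted from 1 at the first base shown. Of 35097 RefSeq promoter windows of the same length, 24% held this core at least once and 3.80% at least 2 times. CYP26A1 encodes the cytochrome that breaks down retinoic acid and is itself induced by it. Its window held the searched form of the direct repeat on the minus strand at bases 161 to 177, as did 28 of the 35097 windows (0.0798%). This share is not that of all repeats these receptors bind. PLXDC2 encodes a plexin-domain membrane protein, and its window held the RBPJ core on the minus strand at bases 271 to 276. The window of VAT1L, a gene named for its likeness to a synaptic vesicle membrane protein, held no match to either marked pattern. Also searched, and not marked, were AGGAAG for ETS factors, CACGTG, the E-box, and GGGCGG, the GC box. AGGAAG lay in PLXDC2 at bases 196 to 201, on the minus strand, and in VAT1L at bases 15 to 20. VAT1L also held GGGCGG at bases 163 to 168, while HES1 and CYP26A1 held none of these. Of the 35097 windows 33.7% held AGGAAG and 44.9% GGGCGG. A match describes the letters only and is not a bound site.

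At the HES1 promoter the fold was -1.92 in KMS-12, against -0.53 in KMS-11 and -0.20 in RPMI8226, in the authors' deposited table. The CYP26A1 promoter had -1.78 in KMS-12, against -0.89 in KMS-11 and -0.51 in RPMI8226 in the authors' deposited table. For PLXDC2 the authors' deposited table gave -1.75 in KMS-12, against -0.09 in KMS-11 and -0.81 in RPMI8226. KMS-12 was the lowest of the lines at all 4 promoters, which were picked for being low in it. The authors' deposited table listed VAT1L at -1.74 in KMS-12, against -0.02 in KMS-11 and -0.51 in RPMI8226. The HES1 value in KMS-12 was shared with 17 other regions and the VAT1L value with 24 others, a feature of the table described next.

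KMS-12 had the deepest folds of the 3 lines. Its median was -0.79 (quartiles -1.11 and -0.56), a ratio of JQ1 to DMSO of 0.578, against medians of -0.71 in KMS-11 and -0.61 in RPMI8226. A fold at or below -1, the size used here to call a region, was reached in KMS-12 by 1148 regions, 29.9% of the table (95% Wilson interval 28.5 to 31.4, which treats regions as independent). In KMS-11 it was reached by 871 regions (22.7%), and in RPMI8226 by 630 (16.4%). The deep end separated the lines further: 346 regions (9.02%) lay at or below -1.5 in KMS-12, against 181 (4.72%) in KMS-11 and 98 (2.55%) in RPMI8226. At or below -2 the counts were 78 in KMS-12, against 25 in KMS-11 and 5 in RPMI8226. KMS-12 was the lowest line in 1711 regions (44.6%). With each line first centred on its own median it was the lowest in 1336 (34.8%), so most of its excess over an equal share went with its lower median.

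**Figure D1:**
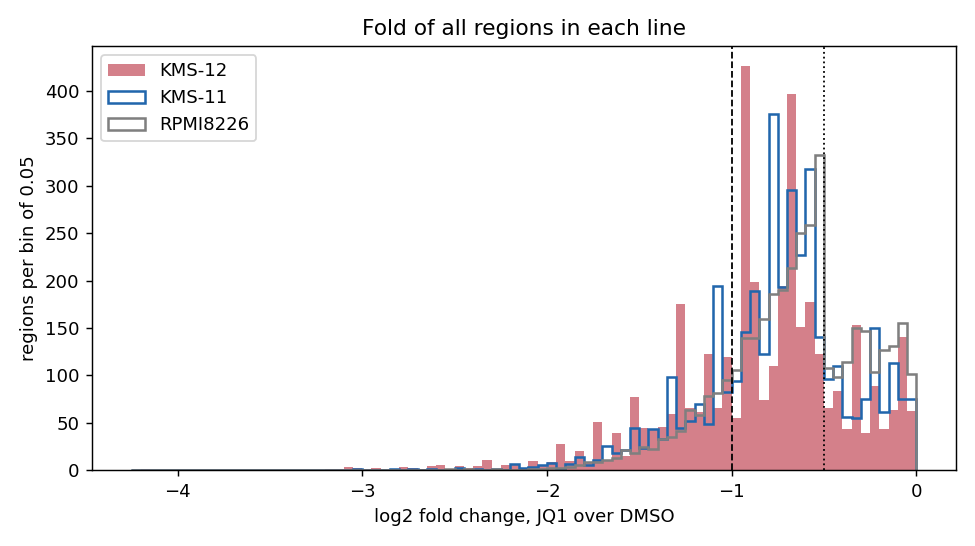
Number of regions per bin of 0.05 (y axis) by log2 fold change of JQ1 over DMSO (x axis) for all regions in KMS-12 (filled), KMS-11 and RPMI8226 (outlines), with lines at -1 (dashed) and -0.5 (dotted). KMS-12 has 346 regions at or below -1.5, more than KMS-11 (181) or RPMI8226 (98), and single tall bins such as the one holding the 213 regions at -0.91.

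The KMS-12 folds took few distinct values. All regions together held 1112 different folds, and 60 values that each occurred in 10 or more regions covered 2007 regions (52.3%), against 41.3% in KMS-11 and 7.58% in RPMI8226. The commonest were -0.91 in 213 regions, -0.66 in 175 and -1.27 in 124. Regions that share a value, such as these, cannot be ranked against each other. The share of regions with a repeated value was 68.4% in the narrowest of 4 equal width classes and 33.4% in the widest. What part depth has in these repeats was not tested.

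Less of the selection falls on KMS-12 in the regions that the other lines chose. In 1737 regions KMS-11 and RPMI8226 were both at or below -0.5, which met the table's rule whatever KMS-12 did. KMS-12 was also at or below -0.5 in 952 of these (54.8%, 95% Wilson interval 52.5 to 57.1), and at or below -1 in 359 (20.7%). The interval again treats regions as independent and does not measure variation between libraries. The KMS-12 median there was -0.58. The same share was 52.4% for KMS-11 in the 1818 regions chosen by the other lines, and 43.5% for RPMI8226 in 2187. Since no fold above 0 was listed in any line, regions in which KMS-12 was higher with JQ1 would be missing from all of these counts.

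By the lines they shared, 952 regions (24.8%) were at or below -0.5 in all 3 lines, 1235 in KMS-12 and KMS-11 only, 866 in KMS-12 and RPMI8226 only, and 785 in the other lines but not in KMS-12. The KMS-12 median was -0.91 in each of the first 3 classes, and their shares at or below -1 were 37.7%, 37.7% and 37.3%. All 3 classes were cut at -0.5 in KMS-12 itself, and -0.91 is the value repeated in 213 regions. The likeness of the classes thus goes in part with the selection and with tied values. In the 785 regions outside the KMS-12 threshold the median was -0.24, and 202 lay between -0.1 and 0.

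Within the table, the share of regions called in KMS-12 was 29.9% over all regions. By calls in the other lines it ran from 23.2% to 30.7%. The rule of the table shapes these shares. A region that was not low in KMS-11, or not low in RPMI8226, had to be low in KMS-12 to be listed. The shares thus cannot show whether calls in the lines are independent, and sharing apart from this rule was not tested. Of the 2505 regions above -1 in both other lines, KMS-12 called 769 (30.7%), which are 67.0% of its own 1148. KMS-11 shared 263, which are 22.9% of the KMS-12 regions and 30.2% of the KMS-11 regions. RPMI8226 shared 155, which are 13.5% of the KMS-12 regions and 24.6% of the RPMI8226 regions. Called in all 3 lines were 39, which are 23.2% of the 168 called in both other lines. Over all regions of the table the folds of KMS-12 ranked against those of KMS-11 with a Spearman coefficient of -0.126 and against RPMI8226 with -0.207, values shaped by the rule that a region low in fewer lines is left out. In the 1737 regions chosen without KMS-12 the coefficients were 0.0621 with KMS-11 and 0.0033 with RPMI8226. These are descriptions over regions that share libraries and scaling, and all were weak.

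The lowest region of KMS-12 lay inside the long noncoding RNA gene LINC02740 at chr11:42215956-42216229, where the authors' deposited table gives -4.17 in KMS-12, against -3.04 in KMS-11 and -0.03 in RPMI8226. A fold of -4.17 is a ratio of 0.0557 of JQ1 to DMSO. The next gene by rank, LOC107985841 at chr2:4147587-4148045, an uncharacterised locus 6.86 kb from its region, stood at -3.15 in KMS-12, against -1.83 in KMS-11 and -0.05 in RPMI8226 in the authors' deposited table. KMS-11 followed KMS-12 at both of these, and RPMI8226 stayed near 0. At other deep regions KMS-11 was near 0 and RPMI8226 was at or below -0.5. The rule of the table requires 1 of the other lines to be that low wherever the remaining one is not. The gene LOC105376637 contained chr11:39958986-39959387, with -3.01 in KMS-12, against -0.02 in KMS-11 and -0.51 in RPMI8226 in the authors' deposited table. Near RAB33B, which encodes a Rab GTPase of the Golgi, the authors' deposited table gives -3.08 in KMS-12, against -0.20 in KMS-11 and -0.996 in RPMI8226 for chr4:139428038-139428495.

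Among the 20 genes with the lowest KMS-12 regions, at most 1 region a gene, folds ran from -4.17 to -2.62. No fold of these 20 was a value repeated in 10 or more regions. KMS-11 was at or below -1 in 8 of them, against 22.7% of the table, and RPMI8226 in 4, against 16.4%. Regions at or below -0.5 in all lines made up 6 of the 20, against 24.8% of the table. By place, 9 lay inside protein-coding genes, 2 inside lncRNA genes and 9 outside genes, against 47.6%, 13.4% and 39.0% of the table. With 20 regions, these counts are near the shares of the table, except that of KMS-11.

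The protein-coding genes among the 20 have varied functions. RIMS2, a scaffold of the presynaptic release site, had -3.05 in KMS-12, against -1.64 in KMS-11 and -0.91 in RPMI8226 at chr8:103652237-103652462 in the authors' deposited table. CACNA2D4, an auxiliary subunit of voltage-gated calcium channels, had -3.04 in KMS-12, against -0.09 in KMS-11 and -1.32 in RPMI8226 at chr12:1818586-1818956 in the authors' deposited table. Near VPS37B, a subunit of the ESCRT-I complex that sorts membrane proteins for degradation, the authors' deposited table gives -3.00 in KMS-12, against -0.61 in KMS-11 and -0.58 in RPMI8226. This region lay 10.1 kb from VPS37B. Of these 3 genes KMS-11 came within 1.5 of KMS-12 at RIMS2 only, and RPMI8226 at none. TARDBP, the RNA-binding protein TDP-43, stood at -2.92 in KMS-12, against -2.16 in KMS-11 and -0.07 in RPMI8226 in the authors' deposited table. MIGA1, which promotes fusion of mitochondria, stood at -2.77 in KMS-12, against -0.68 in KMS-11 and -0.25 in RPMI8226 in the authors' deposited table. CLIP2, a microtubule-binding linker protein, and RAB43, another Rab GTPase, were below -0.9 in every line, with -2.93 and -2.85 in KMS-12 in the authors' deposited table.

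**Figure D2:**
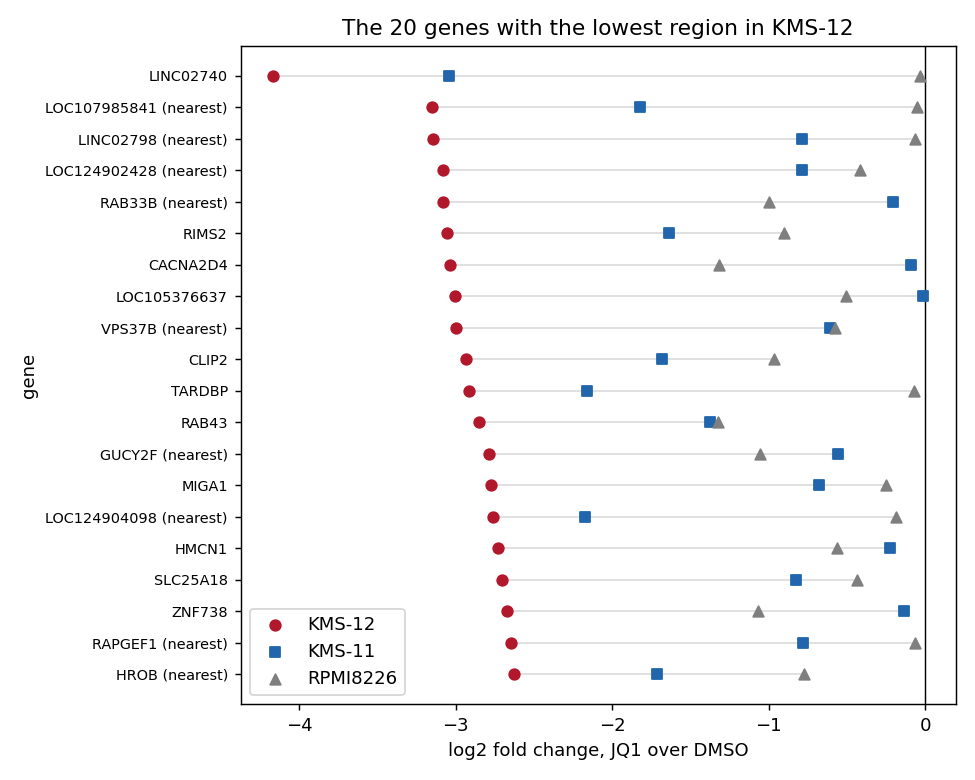
Log2 fold change of JQ1 over DMSO (x axis) at the lowest region of each of the 20 genes with the deepest KMS-12 values (y axis, lowest on top), in KMS-12 (circles), KMS-11 (squares) and RPMI8226 (triangles); "nearest" marks regions outside the named gene. KMS-12 runs from -4.17 to -2.62, RPMI8226 never goes below -1.32, and KMS-11 reaches -3.04 at LINC02740.

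Set against the mean of the other lines, KMS-12 was furthest below it at LOC105376637, by -2.75, at LINC02798, by -2.72, and at LINC02740, by -2.63, from folds in the authors' deposited table. The list of the 10 regions most below the others went on with RAB33B, LOC124902428, VPS37B, HMCN1, CACNA2D4, MIGA1 and RAPGEF1. HMCN1 encodes hemicentin, a large extracellular matrix protein, and RAPGEF1 an exchange factor for small GTPases. All 10 were also among the 20 lowest regions.

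At the opposite end, KMS-12 was furthest above the other lines inside RORA, a nuclear receptor gene, where the authors' deposited table gives -0.06 in KMS-12, against -1.10 in KMS-11 and -2.28 in RPMI8226. JAK1, the kinase that carries cytokine receptor signals, had -0.06 in KMS-12, against -1.43 in KMS-11 and -1.65 in RPMI8226 in the authors' deposited table. The authors' deposited table lists LIMD1, a LIM-domain adaptor, at -0.02 in KMS-12, against -1.85 in KMS-11 and -1.10 in RPMI8226. At all 3 the KMS-12 fold was close to 0 while both other lines were below -1. The remaining 7 were at LINC01307, UMODL1, IL12A-AS1, MACC1-OT1, HPS3, LINC02703 and RALGPS1, and 5 of the 10 carried a repeated KMS-12 value.

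The 10 regions nearest to 0 in KMS-12, at most 1 a gene, lay between -0.0007 and -0.015 and were at or below -0.5 in both other lines, as the rule of the table requires. ASH1L, a histone H3 lysine methyltransferase, contained the nearest of all, at -0.0007 in KMS-12, against -1.01 in KMS-11 and -0.71 in RPMI8226 in the authors' deposited table. PSMA1, a subunit of the proteasome core and thus of the complex that myeloma drugs such as bortezomib inhibit, had -0.0025 in KMS-12, against -1.20 in KMS-11 and -0.97 in RPMI8226 in the authors' deposited table. The other 8 genes were LOC105375741, NUDT13, ART4, TACC1, CDS2, UMAD1, SLC51A and NTSR1. These regions were wide, with a median of 731.5 bp against 392 bp over the whole table.

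Around the fold of -1 the values were dense. Just inside it, the authors' deposited table gives -1.003 for the KMS-12 region at GDF1 and -1.004 for those at GSN and HORMAD2. Just outside it, the value in the authors' deposited table is -0.998 at LOC124904911, SLC7A6 and LOC107984343. The called and uncalled values on either side of -1 thus adjoin without a gap.

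Chromosome X had the lowest KMS-12 median of the 23 chromosomes with at least 30 regions. Its 120 regions had a median of -0.94, and 57 of them (47.5%) were at or below -1, against 29.9% over the table. The other lines did not have X at the low end: its median was -0.69 in KMS-11, where 21.7% of its regions were at or below -1, and -0.57 in RPMI8226, where 6.67% were. Chromosomes 22 and 21 followed in KMS-12 with medians of -0.91 over 35 regions and -0.90 over 48. The highest medians were -0.71 on chromosome 12, -0.72 on chromosome 8 and -0.73 on chromosome 6. The KMS-12 median was the lowest of the 3 lines on 19 of the 23 chromosomes. The quartiles within any chromosome were far wider than the spread between chromosome medians.

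**Figure D3:**
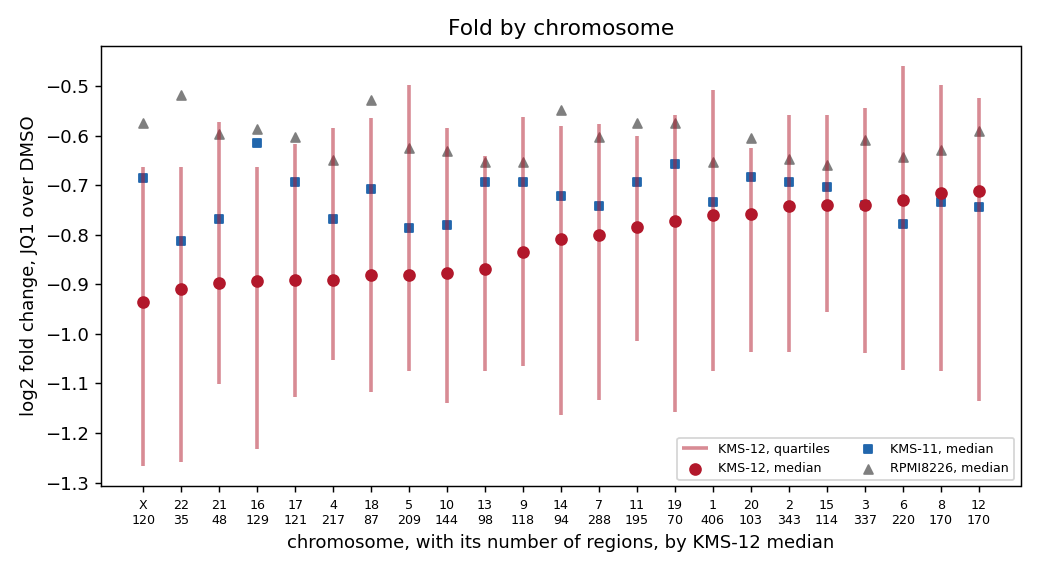
Median log2 fold change of JQ1 over DMSO (y axis) on each chromosome with at least 30 regions (x axis, with the number of regions, in the order of the KMS-12 median), for KMS-12 (circles, with bars from the first to the third quartile over regions), KMS-11 (squares) and RPMI8226 (triangles). X stands lowest in KMS-12 at -0.94 and chromosome 12 highest at -0.71, and the quartile bars overlap throughout.

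The first 3 Mb of X, chosen after their values were seen, were lower in KMS-12 than the rest of X. This is the end that X shares with Y and that pairs with it in meiosis, the pseudoautosomal region. The stretch held 19 regions between 282255 and 2205151, with a KMS-12 median of -1.24 and a range from -1.95 to -0.67, and 16 of the 19 were at or below -1 (84.2%). KMS-12 was the lowest line in 17 of the 19. In KMS-11 the median was -0.66 with 3 regions at or below -1, and in RPMI8226 it was -0.26 with 0 at or below -1 and 12 above -0.5. At these 12 the rule of the table puts KMS-12 and KMS-11 at or below -0.5, so the gap to RPMI8226 goes in part with the selection. Over all regions above -0.5 in RPMI8226, 37.7% were at or below -1 in KMS-12. The remaining 101 regions of X had a KMS-12 median of -0.91, with 41 at or below -1 (40.6%). Without the first 3 Mb the median of X was thus the same repeated value as that of chromosome 22, -0.91, while its share at or below -1 was still above the 37.1% of chromosome 22, the next highest. Among 109 windows of 10 Mb with at least 15 regions, the first of X was the lowest in KMS-12, at -1.24, and the next was 20 to 30 Mb of chromosome 2, at -1.06. Whether the number of copies of this end, or the mapping of reads shared with Y, has a part in these values was not tested.

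The genes in this stretch include several cytokine receptors. CRLF2, a subunit of the receptor for thymic stromal lymphopoietin, was the nearest gene of 4 regions, and in the authors' deposited table these stood at -1.89, -1.18, -1.48 and -1.58 in KMS-12. At the same 4 regions the authors' deposited table gives -0.61, -0.56, -0.87 and -0.21 in KMS-11 and -0.05, -0.10, -0.26 and -0.64 in RPMI8226. KMS-12 was below both other lines at each of the 4, and its highest value was below the lowest of either. At each of the 4 another line was above -0.5, where the rule of the table requires KMS-12 to be at or below -0.5. The regions lay 11.8 to 134 kb from the gene. CSF2RA, the alpha chain of the receptor for granulocyte-macrophage colony-stimulating factor, had regions at -1.14 and -0.67 in KMS-12, against -0.66 and -0.13 in KMS-11, and -0.10 and -0.52 in RPMI8226 in the authors' deposited table. IL3RA, the alpha chain of the interleukin-3 receptor, had -1.03 in KMS-12, against -0.63 in KMS-11 and -0.98 in RPMI8226 in the authors' deposited table. The interleukin-3 receptor region was thus close to equal in KMS-12 and RPMI8226.

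The lowest pair of KMS-12 regions in the stretch lay inside genes. PLCXD1, a phospholipase-like gene, held -1.95 in KMS-12, against -0.67 in KMS-11 and -0.13 in RPMI8226 in the authors' deposited table. PPP2R3B, a regulatory subunit of protein phosphatase 2A, held -1.92 in KMS-12, against -0.87 in KMS-11 and -0.59 in RPMI8226 in the authors' deposited table. Outside genes, the regions nearest to ASMT, which makes melatonin, stood at -1.82 and -1.56 in KMS-12, against -0.69 and -1.13 in KMS-11, and -0.26 and -0.07 in RPMI8226 in the authors' deposited table. P2RY8, a receptor that confines B cells to germinal centres, lay 10.9 kb from a region at -1.52 in KMS-12, against -0.56 in KMS-11 and -0.12 in RPMI8226 in the authors' deposited table. KMS-11 went below KMS-12 at the region near LINC00685 and at 1 of the regions of SHOX, a homeobox gene, with -1.24 and -0.89 in KMS-12, against -1.69 and -1.07 in KMS-11, in the authors' deposited table.

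**Figure D4:**
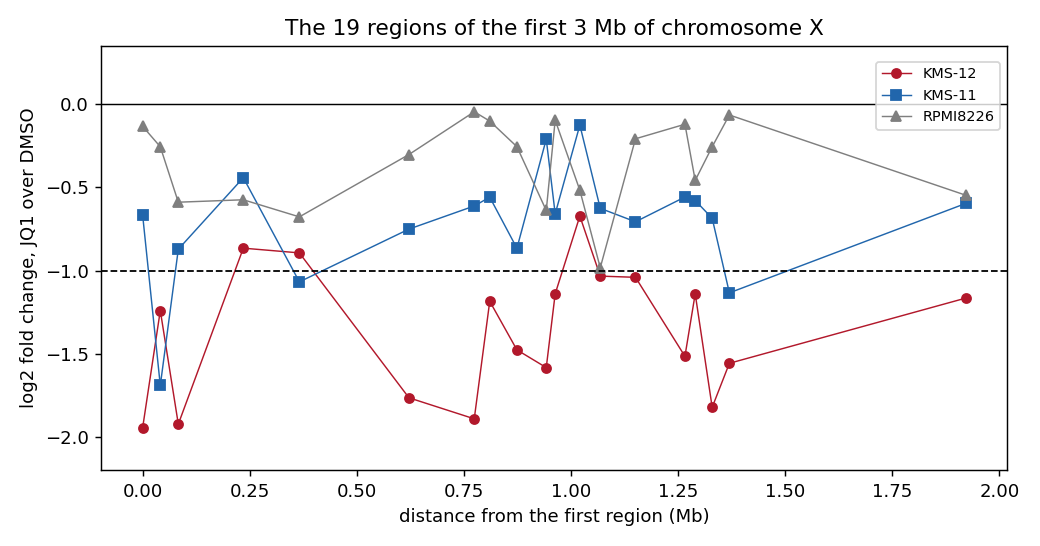
Log2 fold change of JQ1 over DMSO (y axis) at the 19 regions of the first 3 Mb of chromosome X, by distance from the first of them in Mb (x axis), in KMS-12 (circles), KMS-11 (squares) and RPMI8226 (triangles); the dashed line marks -1. KMS-12 lies at or below -1 at 16 regions and is the lowest line at 17, while RPMI8226 has 0 regions at or below -1.

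Place relative to genes made little difference in KMS-12. Regions inside protein-coding genes had a median of -0.77 (1828 regions, 28.8% at or below -1), those inside lncRNA genes only -0.77 (515, 30.5%), and those outside genes -0.83 (1495, 31.1%). Within the last class the median was -0.77 up to 10 kb from a gene, -0.86 from 10 to 100 kb and -0.91 from 100 kb to 1 Mb. Regions over 1 Mb from any gene, a class chosen after its values were seen, numbered 7, and 6 of them were at or below -1 in KMS-12, with a median of -1.54. Their median was -0.69 in KMS-11 and -0.18 in RPMI8226, where all 7 were above -0.5. The rule of the table thus required KMS-12 and KMS-11 to be at or below -0.5 at all 7, and the gap to RPMI8226 goes in part with the selection. The deepest of the 7 was chr1:124501650-124502314, at -3.14 in KMS-12, against -0.79 in KMS-11 and -0.06 in RPMI8226 in the authors' deposited table. By position the 7 lay on chromosomes 1, 3, 16 and 17, all in or near the centromeres, where sequence is repetitive, and the mapping of reads there was not tested.

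Distance to a gene start was available for 3668 regions, with 170 on chromosome 8 not used. Regions up to 1 kb from a start had a KMS-12 median of -0.87 (153 regions, 28.8% at or below -1), those at 1 to 10 kb -0.76 (699), at 10 to 50 kb -0.81 (1553), at 50 to 100 kb -0.75 (630) and at 100 kb to 1 Mb -0.89 (619). The 14 regions over 1 Mb from a start had -1.29. Up to 1 Mb the medians did not run in one direction with distance. The 106 regions that overlapped one of 130 promoter windows had a median of -0.86 and 33 at or below -1 (31.1%), against -0.79 and 29.9% in the 3562 other regions on the same chromosomes. In KMS-11 the promoter regions had a median of -0.63, and in RPMI8226 -0.56. After the 4 promoters printed above, the next lowest in KMS-12 at a protein-coding gene were those of GNAL, a G protein subunit of olfactory neurons, and GSC, a homeobox factor of early embryos. GNAL had -1.61 in KMS-12, against -0.21 in KMS-11 and -0.72 in RPMI8226, and GSC -1.53 in KMS-12, against -0.12 in KMS-11 and -0.53 in RPMI8226, in the authors' deposited table.

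Over the whole table narrow regions had lower folds. The KMS-12 median was -0.91 in the narrowest width class (130 to 288 bp, 347 regions at or below -1, 36.1%), -0.86 and -0.74 in the middle classes, and -0.71 in the widest (552 to 2393 bp, 250 regions, 26.0%). Width and fold had a Spearman coefficient of 0.136 over all regions, and KMS-11 ran from -0.79 in the narrowest to -0.68 in the widest class in the same direction. The difference between the narrowest and the widest class in KMS-12 was -0.20, but -0.035 in regions shared by 3 lines and -0.31 without repeated values. The narrow classes also held most of the repeated values, and the part of read number in this order was not tested.

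Neighbouring regions were not alike in KMS-12. The 107 pairs of regions with a gap of at most 10 kb differed by a median of 0.44 in KMS-12, against 0.23 in KMS-11 and 0.37 in RPMI8226. For the 923 adjacent pairs with a gap over 1 Mb the median difference was 0.43 in KMS-12, against 0.37 in KMS-11 and 0.34 in RPMI8226. Close pairs were thus nearer to each other than distant ones in KMS-11, but not in KMS-12 or RPMI8226. Both members were at or below -1 in KMS-12 in 12 of the close pairs (11.2%) and in 102 of the distant ones (11.1%).

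In all, 3221 genes had a region, and 108 had 3 or more. Of these 108, 24 (22.2%) had a KMS-12 median at or below -1, 4 had every region at or below -1, and 41 had none there. The 4 with every region at or below -1, named after their values were seen, were LOC124904098, CRLF2, LOC101927209 and MECOM, a zinc finger transcription factor gene. All 4 regions of MECOM lay inside the gene, between -1.62 and -1.27 in KMS-12 in the authors' deposited table, with a median of -1.38, against medians of -0.41 in KMS-11 and -0.84 in RPMI8226. The 5 lowest medians were at LINC02798 (-1.74 over 3 regions), LOC124904098 (-1.67 over 4), CRLF2 (-1.53 over 4), XPO6 (-1.53 over 3) and LOC105371082 (-1.41 over 3). LINC02798 and LOC124904098 are the nearest genes of pericentromeric regions, of which 3 of 3 and 4 of 4 were above -0.5 in RPMI8226. There the rule of the table requires KMS-12 to be at or below -0.5. XPO6 encodes the nuclear exporter of actin. Its 3 regions were uneven, with -1.53, -0.42 and -1.72 in KMS-12, against -1.25, -1.33 and -0.25 in KMS-11 and -1.56, -1.70 and -0.77 in RPMI8226 in the authors' deposited table. The noncoding gene LOC105371082 contained all 3 of its regions, at -1.41, -1.44 and -0.68 in KMS-12, against -1.07, -1.20 and -0.60 in KMS-11 and -1.03, -0.62 and -1.37 in RPMI8226 in the authors' deposited table. It was at or below -0.5 at all 3 regions in all lines.

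The 5 highest medians were at ARID1B (-0.16 over 4 regions), PITPNC1 (-0.17), LOC124901979 (-0.21), GPC6 (-0.23) and MEF2C-AS1 (-0.27), the last 4 with 3 regions each. ARID1B, a subunit of the BAF chromatin remodelling complex, had -0.03, -0.74, -0.25 and -0.07 in KMS-12, against -1.10, -0.51, -1.10 and -0.64 in KMS-11 and -0.97, -0.26, -0.94 and -0.72 in RPMI8226 in the authors' deposited table. KMS-12 was the highest line at 3 of its 4 regions and the lowest at the remaining one. At those 3 it was above -0.5, where the rule of the table puts both other lines at or below -0.5. PITPNC1, a phosphatidylinositol transfer protein, had -0.10, -0.17 and -0.68 in KMS-12, against -0.62, -0.63 and -0.73 in KMS-11 and -0.82, -0.60 and -0.43 in RPMI8226 in the authors' deposited table. MEF2C-AS1 is transcribed antisense to MEF2C, a transcription factor of B cells and muscle, and reads of an open region carry no strand that would tell the genes apart. Its regions had -0.34, -0.18 and -0.27 in KMS-12, against -0.60, -0.51 and -0.57 in KMS-11 and -1.48, -0.63 and -0.69 in RPMI8226 in the authors' deposited table.

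The genes with most regions, 5 each, were SLC35F3, DLG2, SEMA3C, EMB, ITPR1 and NLGN1, with KMS-12 medians of -0.96, -0.93, -0.91, -0.89, -0.72 and -0.68. DLG2 and NLGN1 encode a scaffold and an adhesion protein of synapses, SEMA3C a secreted guidance cue, EMB the adhesion protein embigin, and ITPR1 the inositol trisphosphate receptor that releases calcium from the endoplasmic reticulum. Within ITPR1 the 5 regions ran from -1.53 to -0.08 in KMS-12 in the authors' deposited table, and within DLG2 from -1.42 to -0.21. The 5 regions of these genes thus spread widely, unlike those of MECOM. All 5 regions of SEMA3C and of NLGN1 carried repeated KMS-12 values. CYP26A1, whose promoter is shown above, had 3 regions that were at or below -0.5 in all lines, with -1.78, -1.27 and -0.74 in KMS-12, against -0.89, -1.19 and -0.88 in KMS-11 and -0.51, -0.79 and -0.55 in RPMI8226 in the authors' deposited table.

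Of 18 gene lists with 417 symbols, 416 matched the RefSeq table, and their genes had 110 regions, of which 24 were at or below -1 in KMS-12. Of the 110, 81 lay inside the gene, with 17 at or below -1, and the others were assigned to the nearest gene by position only. Read against 29.9% and a median of -0.79 over the table, most lists had medians nearer to 0. The NF-kB list was the lowest of those with more than 1 region: 3 of its 26 genes had 1 region each, and all 3 were at or below -1, with a median of -1.53. TRAF6, an adaptor ligase that activates the pathway, had -1.53 in KMS-12, against -0.93 in KMS-11 and -0.26 in RPMI8226 in the authors' deposited table. MAP3K14, the kinase NIK that drives the noncanonical branch, had -1.53 in KMS-12, against -0.79 in KMS-11 and -1.16 in RPMI8226 in the authors' deposited table. TNFAIP3, the ubiquitin-editing inhibitor A20, had -1.19 in KMS-12, against -0.44 in KMS-11 and -0.54 in RPMI8226 in the authors' deposited table. The regions of TRAF6 and TNFAIP3 lay 4.63 and 21.2 kb outside these genes. The list thus holds activators and an inhibitor that were both lower, and all 3 values were repeated ones, those of TRAF6 and MAP3K14 being the same value, found in 55 regions.

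Plasma cell identity genes had 8 regions at 7 of 24 genes, with a KMS-12 median of -0.80 and 2 regions at or below -1. CADM1, an adhesion molecule 13.6 kb from its region, was lowest, at -1.13 in KMS-12, against -0.20 in KMS-11 and -0.63 in RPMI8226 in the authors' deposited table. FCRL5, a surface receptor of plasma cells, followed at -1.05 in KMS-12, against -0.56 in KMS-11 and -0.55 in RPMI8226 in the authors' deposited table. POU2AF1, the B cell coactivator of octamer factors, had -0.94 in KMS-12, against -0.05 in KMS-11 and -0.85 in RPMI8226 in the authors' deposited table. KMS-12 was the lowest line at these 3 regions, and at none of the other 5 of the list. IRF4, the transcription factor on which myeloma cells depend, had -0.36 in KMS-12, against -1.28 in KMS-11 and -0.51 in RPMI8226 in the authors' deposited table. SLAMF7, a surface receptor targeted by the myeloma antibody elotuzumab, had -0.44 in KMS-12, against -0.75 in KMS-11 and -1.72 in RPMI8226 in the authors' deposited table. CD28, a costimulatory receptor 48.1 kb from its region, had -0.91 in KMS-12, against -1.19 in KMS-11 and -0.19 in RPMI8226 in the authors' deposited table. The adhesion molecule NCAM1 had regions at -0.68 and -0.06 in KMS-12, against -0.20 and -0.56 in KMS-11 and -1.01 and -0.86 in RPMI8226, in the authors' deposited table.

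The B cell list had 11 regions at 6 of 26 genes, with a median of -0.66 and 2 at or below -1. CXCR5, the receptor that guides B cells into follicles, was lowest at -1.65 in KMS-12, against -0.05 in KMS-11 and -0.76 in RPMI8226 in the authors' deposited table. This region lay 31.5 kb from CXCR5. The 3 other regions of CXCR5 were at -0.93, -0.92 and -0.63 in KMS-12 in the authors' deposited table, the first inside the gene and the others 44.4 and 12.9 kb away. POU2F1, an octamer-binding factor, had 1 region low in all lines, at -1.43 in KMS-12, against -1.60 in KMS-11 and -1.58 in RPMI8226, in the authors' deposited table. The 2 other regions of POU2F1 were at -0.36 and -0.07 in KMS-12, against -0.95 and -0.93 in KMS-11 and -0.81 and -0.72 in RPMI8226, in the authors' deposited table. EBF1, a factor that sets B cell fate, had -0.91 at a region 58.5 kb away, and BLK, a B cell kinase, -0.66 in KMS-12 in the authors' deposited table.

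Calcium signalling had the most regions, 24 at 13 of 30 genes, with a median of -0.83 and 6 at or below -1 (25%). NFATC2, a calcium-activated transcription factor, had -1.74 in KMS-12, against -0.79 in KMS-11 and -1.18 in RPMI8226 in the authors' deposited table. CACNA1E, a voltage-gated calcium channel, had -1.43 in KMS-12, against -0.59 in KMS-11 and -0.31 in RPMI8226 in the authors' deposited table. PRKCB, the protein kinase C of B cell receptor signalling, had 3 regions, at -1.27, -1.06 and -0.89 in KMS-12, against -1.33, -0.90 and -0.86 in KMS-11 and -0.75, -0.77 and -0.10 in RPMI8226 in the authors' deposited table. The kinase's regions were at similar values in KMS-12 and KMS-11. Cell adhesion and migration genes had 13 regions at 6 of 29 genes, with a median of -0.89 and 3 at or below -1, at CXCR5, CADM1 and CDH13, a cadherin, the last at -1.14 in KMS-12, against -0.55 in KMS-11 and -0.87 in RPMI8226 in the authors' deposited table.

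Chromatin regulators had 15 regions at 9 of 38 genes and a median of -0.41, nearer to 0 than the -0.87 in KMS-11 and -0.83 in RPMI8226 at the same regions. A pair stood out from it. CHD8, a chromatin remodelling helicase, had -2.17 in KMS-12, against -1.12 in KMS-11 and -0.15 in RPMI8226 in the authors' deposited table. EZH2, the methyltransferase of the Polycomb repressive complex, had -1.23 in KMS-12, against -0.28 in KMS-11 and -0.52 in RPMI8226 in the authors' deposited table. The other 13 regions of the list were above -1 in KMS-12, with CHD2 lowest at -0.95 and HDAC9 next at -0.89 in the authors' deposited table. Ubiquitin ligase and proteasome genes had 8 regions at 8 of 32 genes and a median of -0.36, against -0.83 in KMS-11 and -0.71 in RPMI8226. Their lowest KMS-12 folds were -1.07 at KLHL6 and -1.01 at FBXW7, substrate adaptors of ubiquitin ligases, in the authors' deposited table. In both lists, wherever KMS-12 was above -0.5 the rule of the table puts both other lines at or below -0.5. That the list medians were nearer to 0 in KMS-12 than in the other lines thus follows in part from the selection.

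In the unfolded protein response list, 7 regions at 6 of 26 genes had a median of -0.51 and 2 were at or below -1. EDEM1, which hands misfolded glycoproteins to degradation, had -1.27 in KMS-12, against -0.79 in KMS-11 and -1.13 in RPMI8226, and TRIB3, a stress-induced pseudokinase, had -1.13 in KMS-12, against -1.17 in KMS-11 and -0.30 in RPMI8226, in the authors' deposited table. The sensor kinase ERN1 stood at -0.44 in KMS-12, against -0.92 in KMS-11 and -0.60 in RPMI8226 in the authors' deposited table. Notch genes had 9 regions at 5 of 18 genes, with a median of -0.65, and only the HES1 promoter described above was at or below -1. The coactivator MAML3 followed at -0.93, the receptor NOTCH1 had -0.66 and the ligand JAG1 -0.65 in KMS-12 in the authors' deposited table. Regions of the pathway's receptor, ligand and coactivators thus did not share the fold of its target gene.

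Cell cycle genes had 4 regions at 4 of 28 genes, with a median of -0.82, and 1 was at or below -1. This was CDC25A, the phosphatase that activates cyclin-dependent kinases, at -1.80 in KMS-12, against -0.93 in KMS-11 and -0.73 in RPMI8226 in the authors' deposited table. E2F7, a repressor of the E2F family, had -0.93, the kinase inhibitor CDKN1A -0.71 and the cyclin CCND3 -0.37 in KMS-12 in the authors' deposited table. Only the CCND3 region lay inside its gene. Among apoptosis genes, the survival factor BCL2 had -0.27 in KMS-12, against -0.52 in KMS-11 and -0.52 in RPMI8226, in the authors' deposited table. The BH3-only protein PMAIP1, 23.5 kb from its region, had -0.02 in KMS-12, against -0.69 in KMS-11 and -1.62 in RPMI8226, in the authors' deposited table. PMAIP1 and BCL2 were nearer to 0 in KMS-12 than in either other line, as the rule of the table requires where KMS-12 is above -0.5.

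The lists closest to the drug and the tumour type had 1 to 4 regions each. None of these was at or below -1, against 29.9% over the table, and with so few regions this says little about the lists. The BET protein and response list had 1 region at 1 of 24 genes, that of BCL2. Myeloma translocation and driver genes had 3 regions at 3 of 25 genes with a median of -0.37: MAF at -0.91, CCND3 at -0.37 and IRF4 at -0.36 in KMS-12 in the authors' deposited table. ETS factors, the family of FLI1, had 4 regions at 4 of 22 genes, with a median of -0.69. These were ELF1 at -0.81, ETS2 at -0.71, ETV1 at -0.66 and EHF at -0.64 in KMS-12 in the authors' deposited table. The AP-1 and immediate early list had 3 regions at 2 of 22 genes, with a median of -0.56. Its lowest value, -0.96, was at a region 48.2 kb from FOS in the authors' deposited table.

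Markers of other cell types had 1 or 2 regions a list. Among all 20033 protein-coding and 18303 lncRNA genes, 3221 had a region, so low counts are not particular to these lists. The T and NK cell list had regions at 2 of 18 genes, CD247 at -0.85 and LEF1 at -0.20, the myeloid list at 1 of 16, CSF1R at -1.27, and the stromal and endothelial list at 1 of 16, PECAM1 at -0.74, all in KMS-12 in the authors' deposited table. The table gives changes and no levels, so these values do not say how open the regions were.

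**Figure D5:**
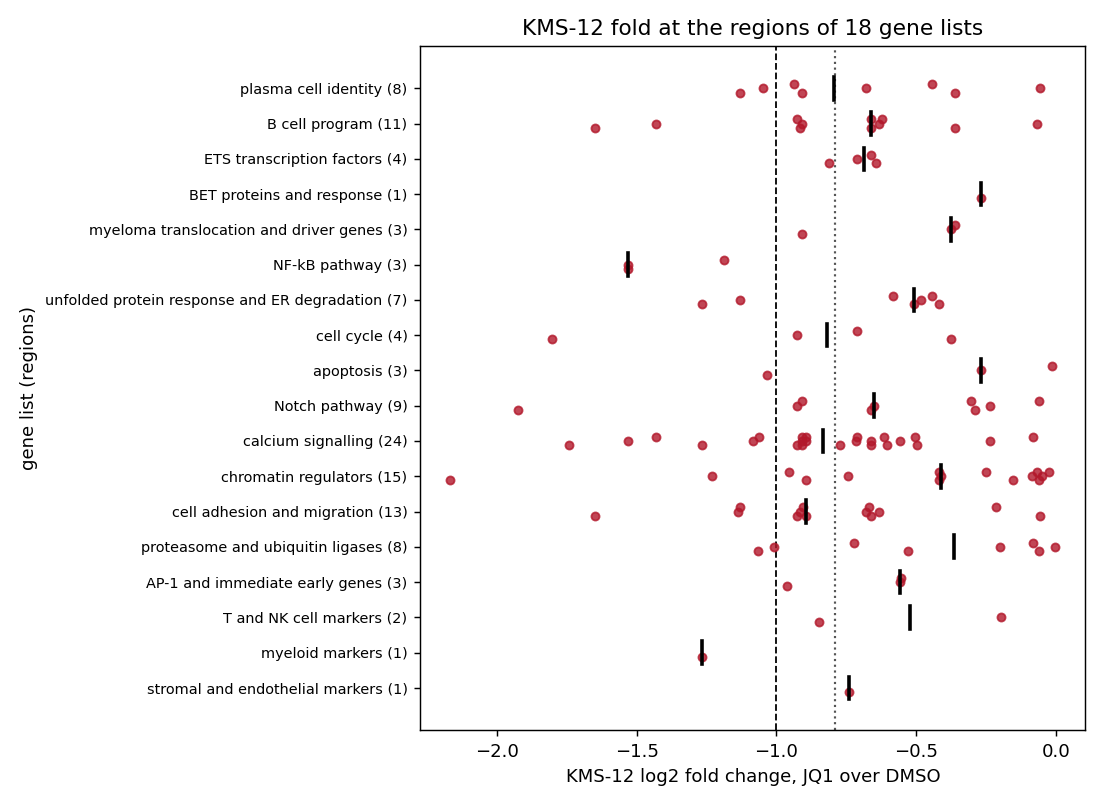
KMS-12 log2 fold change of JQ1 over DMSO (x axis) at each region of 18 gene lists (y axis, with the number of regions); black bars mark list medians, the dashed line -1 and the dotted line the median of all regions, -0.79. The 3 NF-kB regions all lie at or below -1 with a median of -1.53, and the 15 chromatin regulator regions have a median of -0.41 with CHD8 apart at -2.17.

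The genes in the title of the series had no region of their own in the table. The region nearest to FLI1 lay 645 kb away, at chr11:128039386-128039993, with -0.85 in KMS-12, against -0.53 in KMS-11 and -0.33 in RPMI8226 in the authors' deposited table. For MYC the closest listed region was 58.4 kb off, in the noncoding gene PVT1, with -0.66 in KMS-12, against -0.71 in KMS-11 and -0.47 in RPMI8226 in the authors' deposited table. For SMILO, matched as LINC00582, the nearest region lay 130 kb away, at chr1:231460718-231460904, with -1.28 in KMS-12, against -0.44 in KMS-11 and -0.91 in RPMI8226 in the authors' deposited table. KMS-12 was the lowest line at the regions nearest to FLI1 and SMILO, and KMS-11 at that nearest to MYC. At these distances the assignment is by position only.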

How the data were processed

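ATAC-seq libraries of KMS-12 (1 with JQ1, 1 with DMSO) were compared through the log2 fold change that the authors deposited for each region of 1 table, with those of KMS-11 and RPMI8226 as a reference. Samples were grouped by cell line and treatment as labelled. DESeq2, MACS2, hg38 and GRCh38.p13 are named without roles or versions, per the submitters' processing notes. How reads were aligned, filtered, shifted and scaled and how peaks were set is not given in the sources used here. Log base and direction (JQ1 over DMSO) were assumed from the tool and the labels. The design text speaks of duplicates and RNA-seq, but the labels show 1 ATAC-seq library for each treatment of a line. The number of lines in common, a count deposited by the authors beside the folds, was checked to equal the lines at or below -0.5. A filter on sign was assumed, since no fold was above 0. Depth is unknown and no count test could be run, so no p-value is given.

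Medians, counts at or below -1 (alternative -1.5), Wilson intervals (95%) and Spearman coefficients were computed with Python 3.11.15, pandas 2.3.3, numpy 2.4.6 and scipy 1.17.1, and the script was tested on simulated data. Each region went to the gene that contains it, protein-coding genes first and the shortest first, otherwise to the nearest, among 20033 protein-coding and 18303 lncRNA genes of NCBI RefSeq GRCh38.p14. That build shares its chromosome coordinates with GRCh38.p13. Promoter windows came from RefSeq, and chromosome 8 was not used for them. Named were, at most 1 a gene, the 20 lowest KMS-12 regions, the 10 nearest 0, the 10 lowest with a fold in fewer than 10 regions (all among the 20), the 10 lowest and 10 highest against the mean of the other lines, the 3 regions either side of -1, the lowest and highest 5 of the genes with 3 or more regions and those with most regions (6, by a tie), up to 4 genes per list, and the regions nearest the title genes. The first 3 Mb of X, regions over 1 Mb from a gene, CYP26A1 as a gene of 3 regions and the printed promoters were picked after their values were seen, as were a few further members of the lists. Part of the apoptosis list is not reported here. Members and lists were chosen with earlier results of these data known.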

Additional observations from a re-analysis of the deposited data

How the results depend on the processing

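No paired analysis was possible because the comparison has 1 library a side, and for the same reason no replicate could be left out. A median counted as moved when it left the 95% order-statistic interval of its main value, and a count when it changed by over 1.5 times. Without the repeated values the KMS-12 median was -0.76, the regions at or below -1 numbered 616, those lowest in KMS-12 798, the Spearman coefficient with RPMI8226 was -0.273, the X median -1.16, the narrow minus wide difference -0.31, list regions at or below -1 numbered 9 and genes with 3 or more regions and a median there 6. Without regions under 300 bp the median was -0.75 and the genes 10. In regions shared by 3 lines the median was -0.91, also inside protein-coding genes, inside lncRNA genes and outside genes. The counts there were 359 regions at or below -1, 411 lowest in KMS-12, 10 list regions and 2 genes, and the width difference was -0.035. These drops in number follow from fewer regions. Rank correlations reversed there, to 0.0978 with KMS-11 and 0.0036 with RPMI8226, and in regions chosen without KMS-12, an alternative added after seeing the data, to 0.0621 and 0.0033. Pearson's r with KMS-11 was -0.071. At -1.5 the regions numbered 346 and the list regions 8. The mean inside protein-coding genes was -0.82, and with regions inside the gene only 14 genes remained past -1. X was the lowest chromosome in the other alternatives except without its first 3 Mb, when its median equalled that of chromosome 22, -0.91. In all, 37 alternatives changed a value by less than these limits. Without depth, the counting error behind a single region cannot be given.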
